A study of Mus musculus with 19 samples.

Results

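Scx- plantaris tendon was compared with Scx+ plantaris tendon after 14 days of a growth stimulus, over every gene of the deposited expression table. The comparison took the 4 Scx- and the 4 Scx+ libraries that the labels place at day 14, which is 8 of the 19 libraries of the study. Both genotypes had received tamoxifen, so neither the drug nor the stimulus separates them. Of the remaining libraries, 8 came from the same genotypes at day 7 (4 each, also with tamoxifen) and 3 from Scx+ controls that had no tamoxifen and no stimulus. According to the study's title, scleraxis was deleted by targeting in the Scx- animals. Alleles, the Cre driver if any, the strain, the age and the kind of stimulus are not stated in the labels. No unstimulated Scx- group was among the libraries, so a difference that predates the stimulus and a difference in the response to it cannot be told apart. Nothing in the labels says whether replicates came from different mice, and each p therefore measures the spread between these samples.

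Scleraxis (Scx) is a basic helix-loop-helix transcription factor of the tendon lineage that binds short DNA sites called E-boxes. It is expressed in tendon progenitors and tenocytes, and it is known for raising the expression of tendon genes such as tenomodulin and of fibrillar collagens. A tendon that is made to grow adds new matrix, chiefly type I and type III collagen with small proteoglycans, which its fibroblasts secrete, modify and crosslink. The plantaris tendon is continuous with the plantaris muscle.

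The deposited signal summed to between 36.6 M and 48.0 M units in each day 14 library. The factors that bring each library's typical gene to a common level were 0.844 to 0.862 in Scx- and 1 to 1.03 in Scx+, and all values below are deposited values divided by that factor (rescaled values). Skeletal muscle fibre genes were a list of 25, mostly contractile and calcium-handling genes, with others such as Ckm, Ckmt2, Mb and Des. They accounted in Scx- replicates 1 to 4 for 18.7%, 21.7%, 5.13% and 4.82% of all signal. In Scx+ replicates 1 to 4 they took 0.308%, 5.79%, 2.99% and 10.1%. Scx- replicates 1 and 2 thus held more muscle signal than any other day 14 library, while Scx- replicates 3 and 4 lay within the Scx+ range. The mean share (± SD, n = 4 each) was 12.6% ± 8.88 for Scx- against 4.80% ± 4.18 for Scx+, a difference of 7.77 percentage points that did not exceed the spread (exact two-sided permutation test, p = 0.229). Fibrillar collagen shares were lowest in the 2 libraries with the most muscle signal, at 3.34%, 1.90%, 12.7% and 8.24% in Scx- replicates 1 to 4 and 13.7%, 9.33%, 9.92% and 9.09% in Scx+. In the unstimulated Scx+ controls the mean shares were 28.9% ± 2.8 for muscle and 0.502% ± 0.243 for fibrillar collagens (SD, n = 3). The tissue mix of the controls thus differed from that of the day 14 libraries, which limits every comparison with control levels below. All 8 day 14 libraries held the tendon markers Tnmd and Col1a2, as the label of the tissue says. In bulk tissue, fewer cells of a type and less RNA per cell cannot be told apart.

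**Figure D1:**
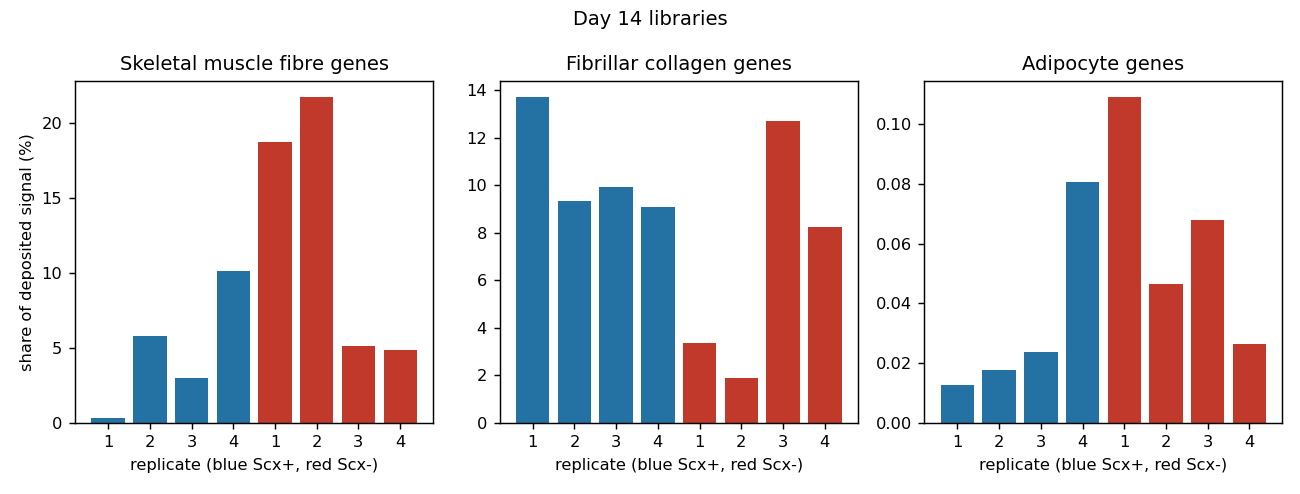
Share of the deposited signal (%, bars from 0) taken by the lists of skeletal muscle fibre, fibrillar collagen and adipocyte genes in each day 14 library, Scx+ in blue and Scx- in red. Scx- replicates 1 and 2 have the highest muscle shares (18.7% and 21.7%) and the lowest fibrillar collagen shares (3.34% and 1.90%).

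The tendon genes Tnmd and Thbs4, the collagen-modifying enzymes Plod1 and Loxl4 and several secreted proteins fell in Scx- tendon at day 14, and a smaller set, in which Plac9a had the lowest p, rose. The calls differed in how well they held: in the 8 fits that left out 1 library, Plod1 passed in 8, Tnmd in 6, and Thbs4 and Loxl4 in 1 each. Without Scx- replicates 1 and 2, none of these tendon and collagen genes passed. Of 16619 genes tested, 86 passed (limma, adjusted p under 0.05), which is 0.517%. Of these, 18 were higher in Scx- (0.108% of the genes tested) and 68 were lower (0.409%). The 8 libraries showed no overlap between the genotypes for 81 of the 86, where 4.81% of all tested genes showed none (1.87% higher and 2.94% lower). The median log2 fold change over all tested genes was 0.015, and 48.4% of them were negative. Without rescaling, on the authors' scale, 993 genes passed, 37 higher (3.73% of the calls, against 20.9% after rescaling) and 956 lower, and the median gene shifted to -0.219 on the log2 scale, so changes are given relative to the median gene. Library totals as the scale shifted the median gene to -0.112.

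The count depended on single libraries. Leaving out Scx+ replicate 1, which had the lowest muscle share, left 22 genes, leaving out Scx- replicate 3 gave 200, and 22 genes passed in every one of the 8 fits that left out 1 library. Without Scx- replicates 1 and 2 together, 8 genes passed: Scx, Plac9a, Plac9b, Tmem254b, Phyhip, Spink8, Gbp2b and Ucma. With the mean of the muscle list as a covariate, 31 passed. The median size of the 86 fold changes was 2.05 on the log2 scale, 1.85 with that covariate and 1.84 without the pair. Fitted on the 8 day 14 libraries alone, without the spread of the other groups, 9 genes passed: Scx, Plac9a, Spink8, Lypd6, Fibin, Scube2, Fbp1, Gm8801 and D730005E14Rik. All 86 genes kept their sign in every alternative in which they were fitted, the omission of that pair included. For the 81 whose groups do not overlap, leaving out libraries could not have turned the sign, so this is no test of them.

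**Figure D2:**
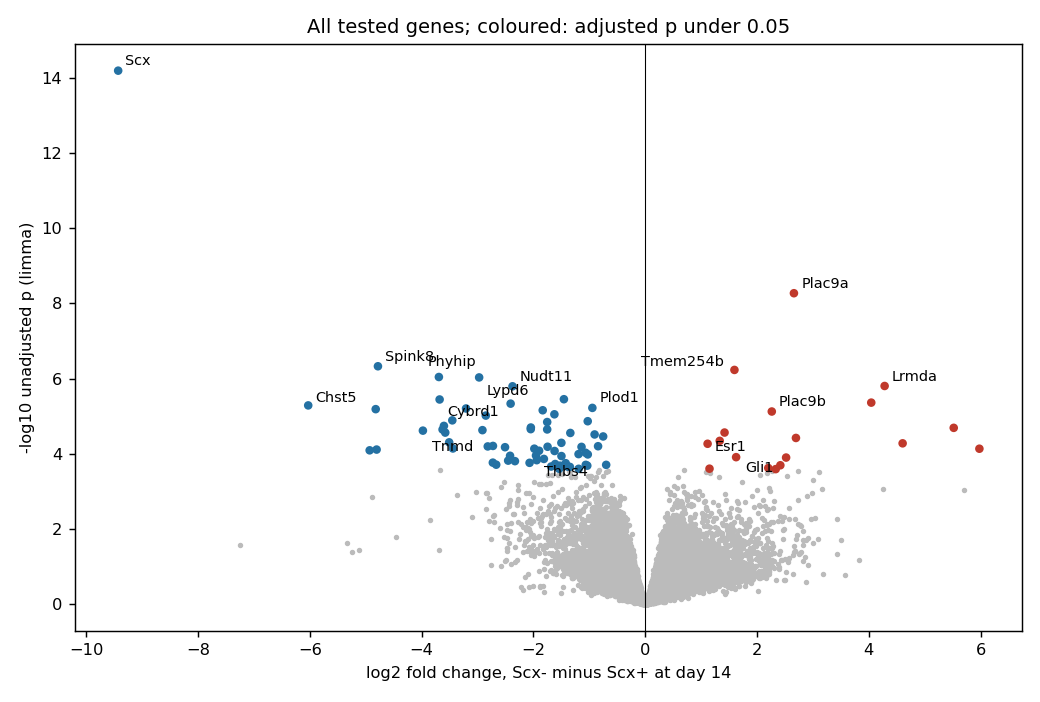
Each point is 1 of the 16619 tested genes: log2 fold change of Scx- minus Scx+ at day 14 (horizontal axis) against -log10 of the unadjusted limma p (vertical axis), with the 18 higher genes past the threshold in red and the 68 lower ones in blue. Scx stands at -9.43 and Plac9a leads the higher genes by p.

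Scx itself was close to absent in every Scx- library. It was at 5.80, 2.48, 4.87 and 1.65 in Scx- replicates 1 to 4 and at 5060, 3723, 5012 and 2082 in Scx+ replicates 1 to 4. The means were 3.70 ± 1.96 and 3970 ± 1402 (SD, n = 4 each), a 1070-fold difference and a log2 fold change of -9.43 (exact two-sided permutation test, p = 0.0286, the smallest that 4 against 4 allows). The genotype labels of the 8 libraries match the level of the targeted gene. The unstimulated Scx+ controls ranged from 317 to 589.

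Among transcription factors of the tendon lineage other than Scx, 1 of 12 fell and none rose, with a median log2 fold change of -0.31 (-0.04 without Scx- replicate 2) and 7 of 12 negative. The gene that fell was Eya2, a transcriptional co-activator with phosphatase activity. Eya2 was at 278, 208, 157 and 166 in Scx- and at 694, 554, 684 and 1145 in Scx+, with no overlap, a log2 fold change of -1.90 ± 0.37 (SE, limma, adjusted p = 0.0255). The call was lost when any of Scx+ replicates 1, 3 and 4 and Scx- replicates 2 and 4 was left out (adjusted p from 0.0504 to 0.0937).

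Tendon matrix and membrane genes had the lowest median of the pathway lists, -1.23, with 13 of 15 members negative. Tnmd and Thbs4 passed, and 4 members were lower without overlap between the genotypes, against 2.94% of all tested genes. With the muscle covariate the median was -0.79, and leaving out the muscle-rich pair, Scx- replicates 1 and 2, it was -0.52. The part of the muscle share in it was not tested beyond these values.

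The promoters of 3 genes are shown for lower genes because scleraxis is known to bind E-boxes, with the letters CANNTG, which read the same on both strands. Each stretch lies ahead of the RefSeq start of its gene on GRCm38.p6 and leaves off any bases that a GENCODE M21 transcript covers, and capitals mark CANNTG. Tnmd lies at chrX:133850758-133850979 on the plus strand, Thbs4 at chr13:92794819-92795068 and Plod1 at chr4:147936777-147937026, both on the minus strand.
Tnmd: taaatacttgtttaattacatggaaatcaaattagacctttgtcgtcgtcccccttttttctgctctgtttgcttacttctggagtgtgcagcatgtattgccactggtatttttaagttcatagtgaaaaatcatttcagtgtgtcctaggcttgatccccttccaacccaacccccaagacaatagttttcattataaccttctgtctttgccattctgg
Thbs4: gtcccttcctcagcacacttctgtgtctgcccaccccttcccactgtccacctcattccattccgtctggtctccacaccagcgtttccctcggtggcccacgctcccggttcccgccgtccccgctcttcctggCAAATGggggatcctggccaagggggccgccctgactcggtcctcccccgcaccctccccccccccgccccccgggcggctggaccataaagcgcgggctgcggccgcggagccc
Plod1: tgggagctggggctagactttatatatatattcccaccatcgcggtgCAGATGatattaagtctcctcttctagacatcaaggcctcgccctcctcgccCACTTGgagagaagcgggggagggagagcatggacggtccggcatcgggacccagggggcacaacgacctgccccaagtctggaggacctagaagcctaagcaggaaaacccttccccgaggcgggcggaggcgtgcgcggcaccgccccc
The stretch before Tnmd held no CANNTG, that before Thbs4 held 1 and that before Plod1 held 2, of which 1 is CAGATG. In the RefSeq table, 66.2% of all 32851 windows of 250 bases before a start held CANNTG, and 14.4% held CAGATG or its reverse complement CATCTG, both of which are also CANNTG. Among windows of tested genes these shares were 59.5% and 10.9%. Of the 57 windows that matched 51 of the lower genes, 38 (66.7%) held CANNTG and 7 (12.3%) held CAGATG or CATCTG. Of the 17 windows that matched 13 of the higher genes, 10 (58.8%) and 0 did. A match is only a run of letters, and its absence from these windows says nothing of binding elsewhere.

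Tnmd encodes tenomodulin, a membrane glycoprotein of mature tenocytes. Its level was 1148, 1232, 6283 and 6626 in Scx- and 62445, 38826, 36113 and 15646 in Scx+. The Scx- pair with the high muscle share lay lowest, and the other pair still lay below every Scx+ library. Means (± SD, n = 4 each) were 3822 ± 3043 against 38258 ± 19159, and Tnmd fell by 3.62 ± 0.62 on the log2 scale (SE, limma, adjusted p = 0.013). The call was lost without Scx+ replicate 1 (adjusted p = 0.0635) or Scx- replicate 2 (0.0578), and without the muscle-rich pair the fold change was -2.41 (adjusted p = 0.197). With the muscle covariate it was -3.08 (adjusted p = 0.0195).

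Thbs4, thrombospondin 4, a matricellular protein of tendon and muscle attachments, was at 71038, 62420, 137036 and 59245 in Scx- and at 401024, 243520, 224032 and 357564 in Scx+. Every Scx- library lay below every Scx+ library, Scx- replicate 3 being the nearest. Thbs4 fell by 1.94 ± 0.40 on the log2 scale (SE, limma, adjusted p = 0.0378). The adjusted p was between 0.0654 and 0.167 after leaving out any library except Scx- replicate 3, and 0.128 with the muscle covariate.

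The fibrillar collagens had a median log2 fold change of -0.95, with 10 of 11 negative and none past the threshold. Col1a2, a chain of type I collagen, was at 449394, 306296, 1640681 and 932675 in Scx- and at 1753824, 1257421, 1307592 and 1192285 in Scx+ (log2 fold change -1.01 ± 0.42, SE, adjusted p = 0.295, limma). Col3a1, the chain of type III collagen, was at 563345, 406217, 2134050 and 1497334 in Scx- and at 1899454, 1335194, 1498265 and 1219657 in Scx+ (adjusted p = 0.444). For both collagens, Scx- replicates 1 and 2 lay below all other libraries and Scx- replicate 3 was within or above the Scx+ range. Without that pair the median of the list was -0.14 and Col3a1 turned to 0.29. The fibril-associated and other interstitial collagens, with a median of -0.55 and 10 of 14 negative, were at 0.06 without the pair. Leaving out Scx- replicate 2 alone brought the medians of these lists to -0.46 and -0.17.

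Plod1, which encodes a lysyl hydroxylase that modifies collagen chains before they leave the cell, fell by 0.95 ± 0.15 on the log2 scale (SE, limma, adjusted p = 0.00674). Its level was 5667, 5696, 8307 and 7336 in Scx- and 14827, 11602, 11981 and 13158 in Scx+, means of 6752 ± 1297 and 12892 ± 1450 (SD, n = 4 each). No library overlapped, and the call held in all 8 fits without 1 library and with the muscle covariate (adjusted p = 0.0194), though not without the muscle-rich pair (log2 fold change -0.72, adjusted p = 0.121), with muscle and adipocyte covariates (0.0548) or in the 8 day 14 libraries alone (0.204). Plod1 was the only member past the threshold among 19 collagen hydroxylases and chaperones. Of these 19, 18 were negative (median -0.72) and 6 were lower without overlap, against 2.94% of all tested genes. Without the pair their median was -0.28, and on the authors' scale 12 of the 19 passed. General genes of the secretory pathway had a median of -0.47, with 18 of 19 negative and none past the threshold. Calr, the endoplasmic reticulum chaperone calreticulin, was at 18523, 19456, 20511 and 20792 in Scx- and at 28988, 26332, 24192 and 30186 in Scx+, which did not overlap (adjusted p = 0.191, limma). On the authors' scale 8 of the 19 secretory genes and 5 of the 15 tendon matrix and membrane genes passed, and without Scx- replicate 3 the 3 lists had 3 (hydroxylases), 1 (secretory) and 6 (tendon matrix) calls.

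Of 13 procollagen cleavage and crosslinking genes, 1 fell and 12 were negative (median -0.60). It was Loxl4, a lysyl oxidase-like enzyme, at 361, 257, 802 and 306 in Scx- and at 1080, 937, 894 and 1191 in Scx+ (log2 fold change -1.39 ± 0.30, SE, adjusted p = 0.0463, limma). Scx- replicate 3 came close to the lowest Scx+ library. The call of Loxl4 was lost without any library except Scx- replicate 3 (adjusted p from 0.0771 to 0.176) and with the muscle covariate (0.18). Without the muscle-rich pair the median of the list was 0.05. The small leucine-rich proteoglycans, which coat collagen fibrils, had a median of -0.72 with 11 of 13 negative and none past the threshold, and were at -0.08 without the pair. Biglycan (Bgn) was at 142009, 132015, 262329 and 197817 in Scx- and at 260556, 216104, 277408 and 223152 in Scx+ (adjusted p = 0.396), overlapping through Scx- replicate 3.

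Among matricellular proteins, which sit in the matrix and act on cells rather than bear load, 1 of 22 fell and 18 were negative (median -0.49, or -0.16 without Scx- replicate 2). Cthrc1, a secreted protein made by fibroblasts that lay down matrix, was at 8232, 6117, 13378 and 19974 in Scx- and at 53566, 44183, 51935 and 24700 in Scx+. The unstimulated controls, which also differ in muscle share and tamoxifen, held 72.4 to 160, far below both genotypes at day 14. Cthrc1 fell by 1.95 ± 0.39 (SE, limma, adjusted p = 0.0312). It did not pass when any of Scx+ replicates 1, 2 and 3 and Scx- replicates 1 and 2 was left out (adjusted p from 0.0879 to 0.142), nor with the muscle covariate (0.0709). Elastic fibre genes (median -0.54, 13 of 16 negative), matrix proteases and their inhibitors (-0.51, 16 of 24), hyaluronan and large proteoglycan genes (-0.24, 11 of 13) and basement membrane genes (-0.27, 13 of 17) had no member past the threshold. Without the muscle-rich pair these medians were -0.09, 0.09, 0.17 and 0.10.

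**Figure D3:**
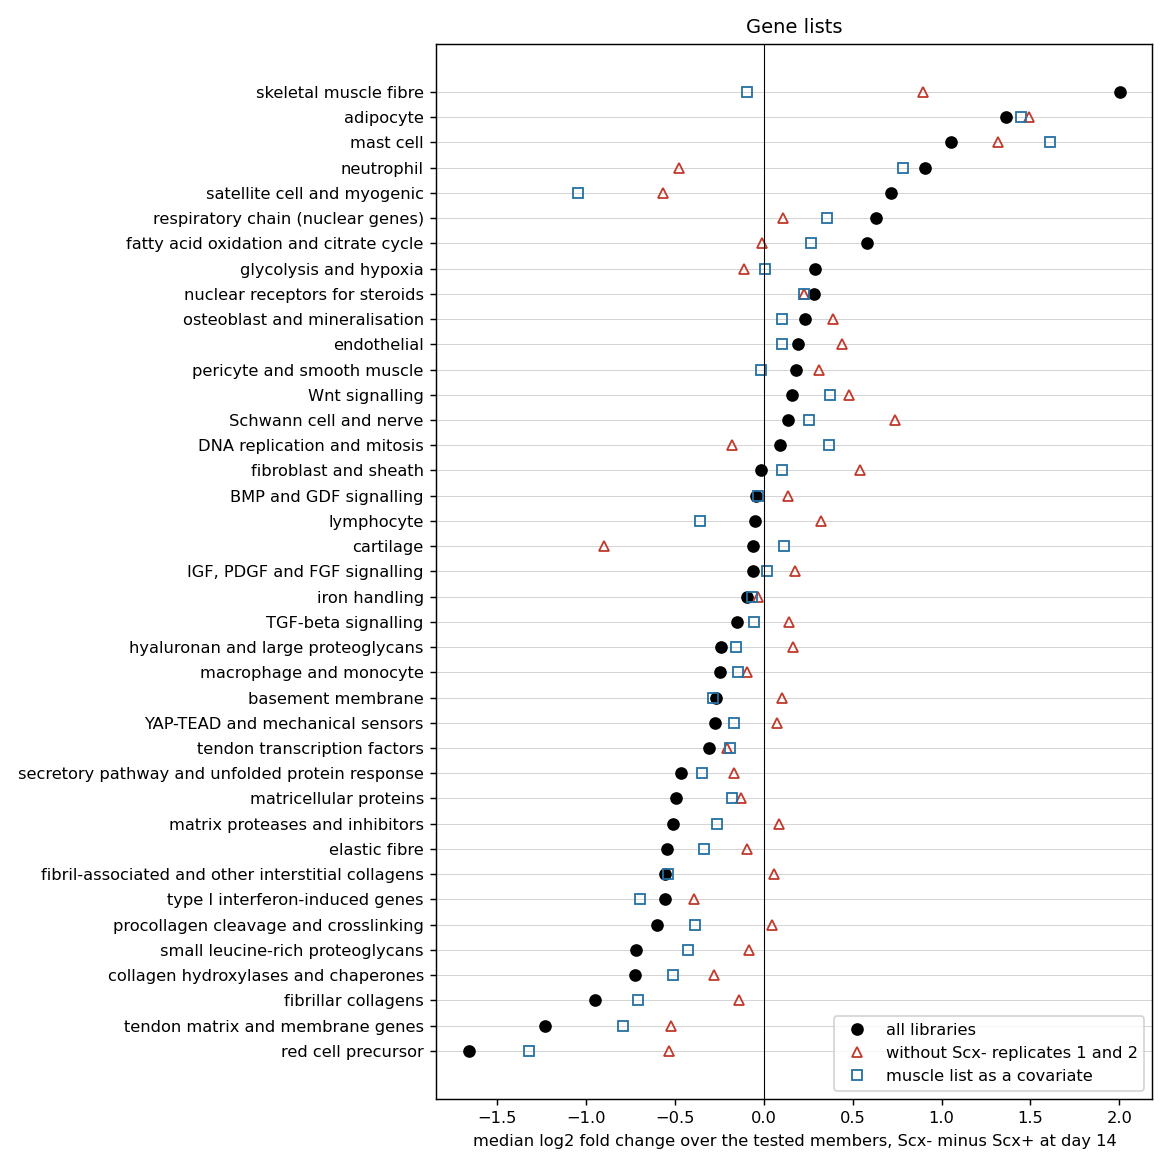
Median log2 fold change, Scx- minus Scx+ at day 14, over the tested members of each of the 39 gene lists, for all libraries (black), with the muscle list as a covariate (blue squares) and without Scx- replicates 1 and 2 (red triangles). Tendon matrix and membrane genes stay at or below -0.52 in all 3 fits, fibrillar collagens go from -0.95 to -0.14 without the pair, and skeletal muscle fibre genes go from 2.0 to -0.09 with the covariate, which is the mean of that same list.

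Several genes for surface, enzyme or secreted proteins that were on no tendon list fell as well. Chst5, a sulphotransferase that adds sulphate to N-acetylglucosamine, was listed at 0, 11.1, 2.14 and 14.4 in Scx- and at 1356, 390, 396 and 150 in Scx+ (log2 fold change -6.03 ± 0.94, SE, adjusted p = 0.00659, limma). Cybrd1, an iron reductase of the plasma membrane, was at 49.4, 20.8, 121 and 118 in Scx- and at 1574, 1124, 690 and 377 in Scx+ (-3.68 ± 0.56, adjusted p = 0.00596). It was the only member past the threshold among 16 genes of iron handling, whose median was -0.09. Lypd6, a membrane-anchored protein of the Ly6 family, was at 29.8, 51.7, 82.2 and 54.0 in Scx- and at 545, 398, 535 and 257 in Scx+ (-2.97 ± 0.41, adjusted p = 0.00257). For these 3 genes Scx+ libraries stood well above every Scx- library, and the calls held in all 8 fits without 1 library and with the muscle covariate. Without the muscle-rich pair their adjusted p-values were 0.0854, 0.0908 and 0.0765, with fold changes of -5.68, -2.76 and -2.60.

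C1qtnf3, a secreted protein of the C1q and TNF family, was at 11273, 5179, 21109 and 29348 in Scx- and at 152587, 111464, 118903 and 44192 in Scx+ (log2 fold change -2.82 ± 0.54, SE, adjusted p = 0.0231, limma). The controls, which differ in muscle share and tamoxifen too, held 145 to 464, below both genotypes at day 14. Fibin, a secreted protein first described in fin buds, fell from 11143 ± 2172 to 3606 ± 649 (SD, n = 4 each), with every Scx- library below every Scx+ library (-1.62 ± 0.26, adjusted p = 0.00779). Scube2, a secreted protein that helps hedgehog ligands leave the cell, fell by 1.68 ± 0.36 (adjusted p = 0.0463) but did not pass after any single library was left out (adjusted p from 0.0548 to 0.166) or with the muscle covariate (0.123). Erfe, erythroferrone, a hormone of iron metabolism, fell by 2.33 ± 0.49 (adjusted p = 0.0388). Adam23, a cell surface protein without protease activity, fell by 1.98 ± 0.39 (adjusted p = 0.0239). The calls of C1qtnf3, Erfe and Adam23 were lost in 5, 6 and 4 of the 8 single omissions, Scx+ replicate 1 among them each time (adjusted p of 0.105, 0.142 and 0.122 without it). None of the 3 passed with the muscle covariate (0.0518, 0.128 and 0.0998).

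Other lower genes with roles inside the cell or in its membrane included Rflnb. Rflnb, a filamin-binding regulator of the actin skeleton, was at 4155, 2170, 3426 and 5561 in Scx- and at 10945, 9255, 16558 and 13273 in Scx+ (-1.75 ± 0.30, adjusted p = 0.0104, limma). Zfp185, an actin-associated LIM-domain protein, was at 440, 481, 1435 and 1048 in Scx- and at 3533, 3518, 3451 and 2181 in Scx+ (-2.05 ± 0.35, adjusted p = 0.013). Both showed the groups apart, and Zfp185 lost its call without Scx+ replicate 1 (0.0544) or Scx- replicate 2 (0.057). Stk26, a kinase of the Ste20 family, fell by 1.83 ± 0.29 (adjusted p = 0.0068) and Nudt11, a phosphatase of inositol pyrophosphates, by 2.37 ± 0.34 (adjusted p = 0.00331). Nudt11 was at 55.4, 83.1, 95.1 and 72.0 in Scx- and at 574, 424, 458 and 222 in Scx+, while the controls held 149 to 375. The calls of Rflnb, Stk26 and Nudt11 held in all 8 single omissions and with the muscle covariate, but not in the 8 day 14 libraries alone (0.137, 0.0933 and 0.0612). Kcnj15, an inward rectifier potassium channel, fell by 2.05 ± 0.36 (adjusted p = 0.013), Aqp2, a water channel best known from the kidney collecting duct, by 1.75 ± 0.31 (adjusted p = 0.013), and Ddah1, an enzyme that breaks down asymmetric dimethylarginine, by 1.62 ± 0.32 (adjusted p = 0.0255). Kcnj15 did not pass without Scx+ replicate 1 (0.0533), Aqp2 without Scx+ replicate 1 or 3 or Scx- replicate 2 (0.0503 to 0.0508), and Ddah1 in 6 of the 8 omissions (0.0583 to 0.0993). With the muscle covariate Aqp2 and Ddah1 did not pass (0.0518 and 0.105). Pdgfrl, a secreted relative of the PDGF receptors, was the only 1 of 24 genes of IGF, PDGF and FGF signalling to pass (-1.03 ± 0.21, adjusted p = 0.0297), and it did not pass in 5 single omissions (0.0625 to 0.112) or with the muscle covariate (0.116).

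A few genes of low level lay far lower in most or all libraries of 1 genotype than in most or all of the other. Apart from Ucma, they are named here after their values were seen. Spink8, a serine protease inhibitor of the Kazal type, was listed at 0 in all 4 Scx- libraries and at 87.5, 85.9, 54.4 and 18.6 in Scx+ (adjusted p = 0.00244, limma). Phyhip was at 11.6, 2.48, 24.5 and 18.1 in Scx- and at 312, 191, 156 and 92.1 in Scx+ (-3.69 ± 0.50, adjusted p = 0.00257). Both passed in every single omission, with the muscle covariate and without the muscle-rich pair (adjusted p = 0.042 for each). Ucma, a secreted protein of cartilage, was at 94.2, 1.25, 0 and 2.26 in Scx- and at 253, 265, 368 and 89.4 in Scx+, so Scx- replicate 1 overlapped the lowest Scx+ library (-4.93 ± 0.97, adjusted p = 0.0254). Ucma was the only 1 of 9 tested cartilage markers to pass. Of the 11 cartilage markers with listed values, tested or not, Matn1 and Snorc went the other way. Both were listed at 0 in all Scx+ libraries but not in all Scx- libraries. The call of Ucma was lost when any of Scx+ replicates 1, 2 and 3 and Scx- replicates 2 and 4 was left out (0.0504 to 0.111), and with the muscle covariate (0.0754). Gbp2b, a guanylate-binding protein, was at 252, 9.70, 334 and 250 in Scx- and at 0, 5.16, 0 and 0 in Scx+ (5.52 ± 0.96, adjusted p = 0.013, and 0.0544 without Scx+ replicate 1).

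**Figure D4:**
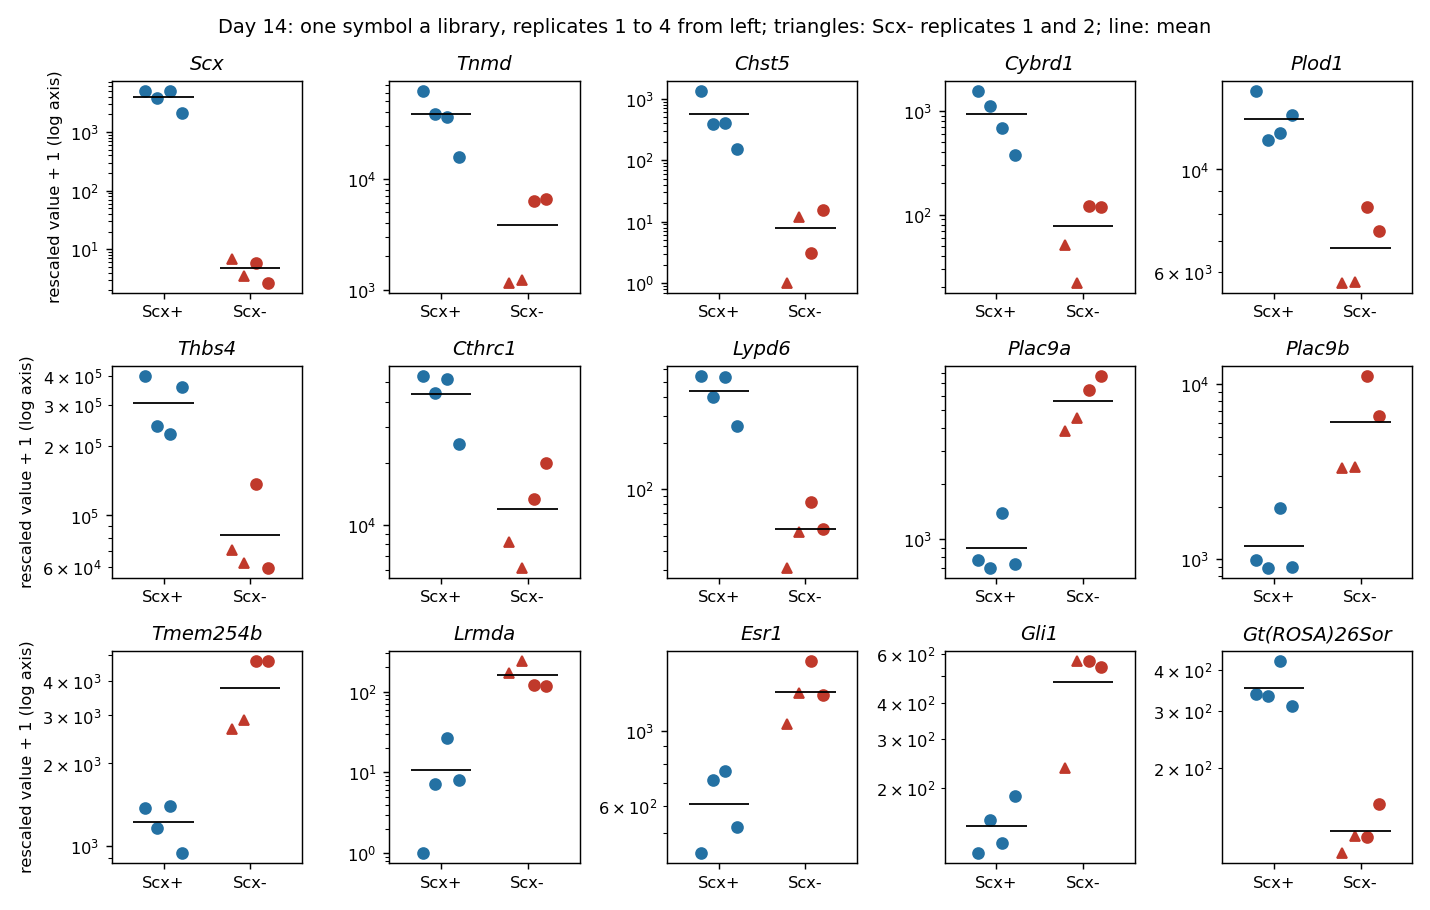
Rescaled value plus 1 (log axis) of 15 genes in each day 14 library, Scx+ in blue and Scx- in red, replicates 1 to 4 from left to right, with triangles for Scx- replicates 1 and 2 and a line at the mean of the 4. No Scx- symbol overlaps the Scx+ symbols of the same gene.

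Plac9a and Plac9b, copies of a gene for a small secreted protein, had the largest fold changes among the higher genes with a mean of at least 200 and no overlap. Plac9a was at 3867, 4528, 6413 and 7694 in Scx- and at 766, 695, 1379 and 734 in Scx+. The Scx- values, whether from muscle-rich libraries or not, were all well above the Scx+ values. The means were 5625 ± 1750 and 893 ± 325 (SD, n = 4 each), a 6.30-fold difference and a log2 fold change of 2.66 ± 0.25 (SE, limma, adjusted p = 4.43e-05). Plac9b rose by 2.26 ± 0.36 (adjusted p = 0.00693), from 982, 887, 1969 and 906 in Scx+ to 3333, 3374, 11195 and 6600 in Scx-. Both calls held in all single omissions, with the muscle covariate and without the muscle-rich pair, where the fold changes were 3.03 and 2.94. In the fit of the 8 day 14 libraries alone Plac9a passed (adjusted p = 0.0205) and Plac9b did not (0.176). The unstimulated controls held 4510 to 7434 of Plac9a, near the Scx- level at day 14, but these differ from both groups in muscle share, tamoxifen and stimulus.

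The values of the copies are uncertain singly, because their annotated transcripts include a pair of 536 bases that are identical (GENCODE M21), and how the authors assigned shared reads is not stated. Summed over the pair, the signal was 7200, 7902, 17607 and 14293 in Scx- and 1748, 1582, 3348 and 1640 in Scx+, a 5.65-fold difference of means (exact two-sided permutation test, p = 0.0286, the smallest possible). The windows of 250 bases before their RefSeq starts share an identical stretch of 172 bases, most of which a GENCODE transcript covers. Ahead of the transcript 43 bases of that stretch remain, so the likeness reaches past the transcript by at least that much. The part of each window ahead of the GENCODE transcript is printed, with capitals for the shared stretch: Plac9a at chr14:25903101-25903143 and Plac9b at chr14:26182481-26182601, both on the minus strand of GRCm38.p6.
Plac9a: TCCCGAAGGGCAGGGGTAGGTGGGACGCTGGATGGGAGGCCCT
Plac9b: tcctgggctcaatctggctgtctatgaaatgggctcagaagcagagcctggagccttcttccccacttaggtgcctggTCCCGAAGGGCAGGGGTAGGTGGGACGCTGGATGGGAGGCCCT
Neither held CANNTG.

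Tmem254b, a membrane protein gene next to Plac9b on chromosome 14, rose by 1.59 ± 0.21 on the log2 scale (SE, limma, adjusted p = 0.00244), from 1216 ± 214 to 3767 ± 1142 (SD, n = 4 each). It also belongs to a set of copies, and an annotated transcript of 1108 bases is identical between Tmem254a and Tmem254b. The 3 copies summed to 2785, 2932, 5028 and 5020 in Scx- and to 1465, 1331, 1442 and 964 in Scx+ (3.03-fold, exact permutation p = 0.0286). Lrmda, named after its values were seen, is a leucine-rich repeat protein gene of pigment cells that lies 2.83 Mb from Plac9a. It was at 167, 238, 120 and 117 in Scx- and at 0, 6.18, 25.8 and 7.08 in Scx+ (4.28 ± 0.61, adjusted p = 0.00331), and it passed in every single omission and with the muscle covariate but not without the muscle-rich pair (0.0805). Within 2 Mb of Plac9a 3 of 29 tested genes passed and within 5 Mb 4 of 57, all of them higher: Plac9a, Plac9b, Tmem254b and, in the wider window, Lrmda. Over all tested genes 0.517% passed. The windows are centred on a gene chosen for passing, and Plac9a and Plac9b are copies that do not count as separate genes. Whether the region as such differs was not tested.

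Near Scx on chromosome 15 (76457452 to 76459458, plus strand, GRCm38), 3 of 104 tested genes within 2 Mb passed, Scx included. The other two were higher in Scx- and are named after their values were seen. Ly6k, a Ly6 family protein best known from testis, was at 62.4, 110, 35.2 and 60.2 in Scx- and at 10.2, 5.56, 6.80 and 9.74 in Scx+ (2.69 ± 0.49, adjusted p = 0.017, limma). Psca, another Ly6 family gene 0.08 Mb away, was at 5.68, 12.5, 5.87 and 12.8 in Scx- and listed at 0 in all 4 Scx+ libraries (adjusted p = 0.0447). Ly6k did not pass in 5 single omissions, among them Scx+ replicates 1, 2 and 3 (0.0525 to 0.0774), and Psca in all but that of Scx- replicate 3 (0.0749 to 0.166). With the muscle covariate neither passed (0.0518 and 0.199). Within 5 Mb of Scx 4 of 185 passed, the fourth being the lower gene D730005E14Rik. Over the chromosome as a whole, 11 of 663 tested genes passed (1.66%), against 0.517% of all tested genes. Gt(ROSA)26Sor, also named after its values were seen, a non-coding gene on chromosome 6 whose locus is widely used to hold inserted transgenes, was at 109, 123, 122 and 155 in Scx- and at 338, 333, 427 and 309 in Scx+ (-1.46 ± 0.22, adjusted p = 0.00596). It passed in every single omission, and whether these mice carry an insertion there is not given in the labels.

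Outside chromosome 14, higher genes of known function included a hedgehog effector and a steroid receptor. Gli1, the transcription factor whose level reports hedgehog signalling, was at 236, 562, 564 and 538 in Scx- and at 117, 154, 128 and 187 in Scx+. Scx- replicate 1 was nearest to the Scx+ range and did not reach it. Gli1 rose by 1.62 ± 0.33 (SE, limma, adjusted p = 0.0329), and did not pass in 6 single omissions (0.0528 to 0.145) or with the muscle covariate (0.108). Esr1, estrogen receptor alpha, was at 1044, 1283, 1599 and 1274 in Scx- and at 436, 717, 757 and 520 in Scx+ (1.12 ± 0.21, adjusted p = 0.0214). It was the only 1 of 12 nuclear receptors for steroids to pass, and the call was lost without Scx+ replicate 1 (0.105) or Scx- replicate 2 (0.0641) and with the muscle covariate (0.0841).

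Alad, an enzyme of haem synthesis, rose by 1.42 ± 0.25 (adjusted p = 0.0137, limma) and Glo1, which detoxifies methylglyoxal, by 1.33 ± 0.25 (adjusted p = 0.0198). Rcan1, a regulator of calcineurin, rose by 1.15 ± 0.25 (adjusted p = 0.0491), and Hddc3, a phosphohydrolase, by 2.20 ± 0.48 (adjusted p = 0.0486). For Glo1 and Hddc3 the highest library was Scx- replicate 2, at 9694 and 1730, which also had the highest muscle share. Rcan1 and Hddc3 lost the call in 7 of the 8 single omissions (adjusted p from 0.0685 to 0.23 and from 0.0722 to 0.187), Glo1 in 4 (0.061 to 0.0883) and Alad without Scx+ replicate 1 or 3 (0.0544 and 0.0507). None of the 4 passed with the muscle covariate (0.184, 0.184, 0.0566 and 0.0534). Hdc, which makes histamine and marks mast cells, was at 423, 171, 198 and 192 in Scx- and at 23.0, 25.9, 89.3 and 67.6 in Scx+ (2.33 ± 0.51, adjusted p = 0.0495), with adjusted p from 0.0579 to 0.238 in 5 single omissions and 0.186 with the muscle covariate.

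Growth factor pathways as lists lay close to the median gene. TGF-beta signalling genes had a median of -0.15 (9 of 14 negative), BMP and GDF signalling -0.05 (13 of 24), IGF, PDGF and FGF signalling -0.06 (13 of 24) and YAP-TEAD and mechanical sensor genes -0.28 (13 of 18). Pdgfrl was the only member of these lists to pass. Without the muscle-rich pair these 4 medians were 0.14, 0.14, 0.17 and 0.07, and without Scx- replicate 2 alone all but that of TGF-beta were positive. Fstl1, a follistatin-like secreted protein and the most abundant BMP list member, was at 80504, 68240, 175124 and 176524 in Scx- and at 225052, 158994, 203510 and 132439 in Scx+ (adjusted p = 0.342). Wnt signalling genes had a median of 0.16 (12 of 22 positive), which became -0.08 on the authors' scale and -0.22 without Scx- replicate 3, and none passed. For DNA replication and mitosis the median was 0.09 and no gene of 30 passed, and the sign turned on the authors' scale (-0.14), with library totals (-0.04) and without the muscle-rich pair (-0.18). Single libraries set this direction: the median was -0.43 with 29 of 30 genes negative without Scx+ replicate 4, and 0.43 and 0.45 with 26 of 30 positive without Scx+ replicate 1 or 2.

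The lists of muscle and energy metabolism genes had positive medians and no member past the threshold. All 25 skeletal muscle fibre genes were positive (median 2.0, range 1.55 to 2.86) and none passed. Their median was 0.96 without Scx+ replicate 1 and 0.90 without the muscle-rich pair. Myh1, a myosin heavy chain of fast fibres, was at 2627586, 3219133, 497583 and 334335 in Scx- and at 23455, 510154, 288228 and 1442903 in Scx+ (2.04 ± 1.52, adjusted p = 0.524, limma), so only Scx- replicates 1 and 2 exceeded the Scx+ range. All 29 nuclear genes of the respiratory chain were positive (median 0.63) and none passed. Genes of fatty acid oxidation and the citrate cycle had a median of 0.58 (19 of 20 positive), and glycolysis and hypoxia genes 0.29 (13 of 20). The respiratory chain gene Atp5b was at 65403, 88787, 29397 and 28170 in Scx- and at 20226, 34305, 27623 and 41941 in Scx+ (adjusted p = 0.39). Satellite cell and myogenic genes had a median of 0.71 (8 of 12 positive), which was -1.04 with the muscle covariate and 0.26 without Scx- replicate 1. With that covariate the 3 metabolic medians were 0.35, 0.26 and 0.01, and without the muscle-rich pair 0.11, -0.01 and -0.11.

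Adipocyte genes had a median of 1.36 (11 of 12 positive, none past the threshold), and it was 1.45 with the muscle covariate and 1.49 without the muscle-rich pair. Leaving out single libraries moved it from 0.88 (without Scx- replicate 1) to 2.03 (without Scx+ replicate 4). They took between 0.0264% and 0.109% of the signal in Scx- and between 0.0128% and 0.0808% in Scx+. Cfd, the adipokine adipsin, was at 23168, 2416, 12162 and 3201 in Scx- and at 1688, 652, 1983 and 7344 in Scx+ (adjusted p = 0.421), and the overlap came from Scx+ replicate 4. All 7 tested mast cell genes were positive (median 1.05, or 0.65 without Scx+ replicate 4), with Hdc the only one past the threshold. Mast cell genes took 0.00135% to 0.00268% of the signal in Scx- and 0.00101% to 0.00192% in Scx+. Macrophage and monocyte genes had a median of -0.25 (17 of 18 negative, and -0.11 without Scx- replicate 1), taking 0.124% to 0.341% and 0.222% to 0.352%. Endothelial (0.19), pericyte and smooth muscle (0.18) and Schwann cell (0.14) markers had medians that turned negative on the authors' scale (-0.05, -0.06 and -0.07), and none passed. The endothelial and pericyte medians also turned without Scx- replicate 1 and the Schwann cell median without Scx+ replicate 1 or Scx- replicate 4. Fibroblast and sheath markers were at -0.01 (7 of 12 negative), or 0.54 with 10 of 12 positive without the muscle-rich pair. Lymphocyte genes were at -0.05 (7 of 11 negative) and osteoblast and mineralisation genes at 0.23 (4 of 11 negative), and single omissions turned the sign of both. All 6 tested neutrophil genes were positive (median 0.91), but their median was -0.48 without the muscle-rich pair and 0.17 without Scx- replicate 1. Red cell precursor genes had a median of -1.66 (5 of 7 negative), which was -0.54 without the muscle-rich pair and -1.05 to -2.47 in single omissions. Alas2 was at 107, 62.4, 438 and 583 in Scx- and at 1449, 333, 609 and 1778 in Scx+. The part of these cell types in the genes past the threshold was not tested.

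Interferon-induced genes had a median of -0.56 at day 14 (23 of 24 negative, none past the threshold) and of 1.87 at day 7. Stat2, a signal transducer of type I interferon, was at 1114, 838, 1768 and 1557 in Scx- and at 1912, 2395, 1559 and 1815 in Scx+ at day 14 (-0.58 ± 0.25, adjusted p = 0.303, limma). The list took 0.0164% to 0.0297% of the signal in Scx- and 0.0312% to 0.0493% in Scx+ at day 14, without overlap. The median was -0.70 with the muscle covariate and -0.39 without the muscle-rich pair. The difference between days was tested per gene only, so the change in the median of this list was not tested.

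The day 7 comparison used separate libraries of both genotypes. Of the 86 genes, 84 had the same sign at day 7 (97.7%, against 67.1% of all tested genes), and 30 passed at day 7 as well, where 128 genes passed (0.77%). Because the 86 were chosen for passing at day 14, their sizes at the 2 days are not compared as a group. None of the 86 passed the test of the difference between days (limma). An unadjusted p under 0.05 was found for 24 of them, a number raised by that choice, and for 721 of all tested genes. Over all tested genes, 3 passed that test (0.0181%). Tnmd fell by 3.18 ± 0.62 at day 7 (adjusted p = 0.0197) and Plac9a rose by 2.52 ± 0.25 (adjusted p = 9.94e-05), close to the day 14 values. Plod1 differed by -0.45 ± 0.15 at day 7 (adjusted p = 0.29), Cthrc1 by -0.66 ± 0.39 (0.785), Gli1 by 0.24 ± 0.33 (0.935) and Kcnj15 by -0.58 ± 0.36 (0.791). The day difference was 1.38 ± 0.47 for Gli1 (adjusted p = 0.644) and -1.47 ± 0.51 for Kcnj15 (0.691). Zfp429, named after its values were seen, was at 8.13, 15.9, 1.90 and 77.0 in Scx- and at 240, 175, 223 and 124 in Scx+ at day 14, but differed by only -0.23 ± 0.62 at day 7 (adjusted p = 0.98, and 0.321 for the difference). Gm3716 and Gpr176 were the 2 genes of opposite sign at day 7, by 0.60 and 0.00.

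**Figure D5:**
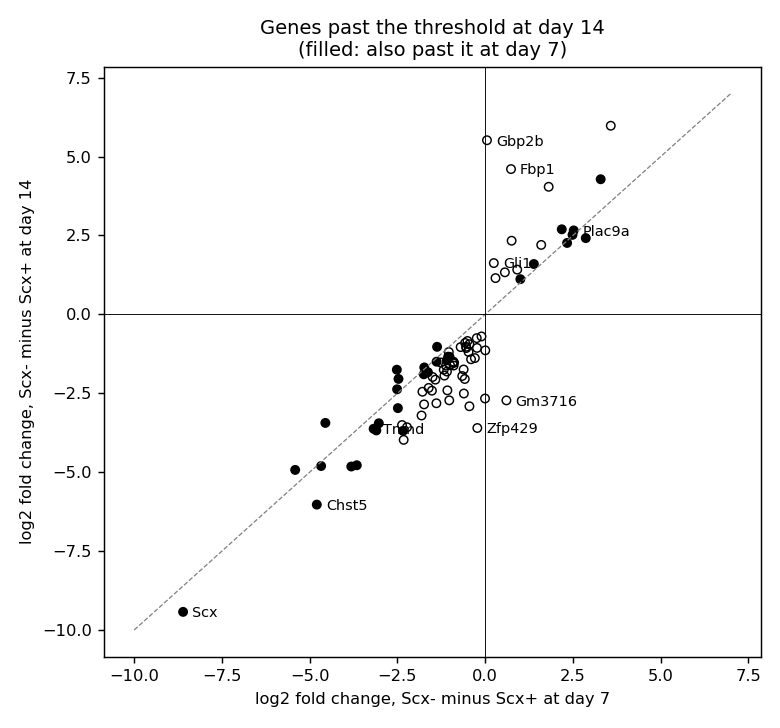
Log2 fold change of Scx- minus Scx+ at day 7 (horizontal axis) and day 14 (vertical axis) for the 86 genes past the threshold at day 14, filled where the gene also passed at day 7 (30 genes), with a dashed line of equality. Scx, Chst5, Tnmd and Plac9a lie near the line, while Gbp2b, Fbp1 and Zfp429 lie farther from 0 at day 14 than at day 7. The 86 were chosen for passing at day 14, and none of them passed the test of the difference between days.

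The authors' deposited table lists 15951 genes, of which 177 had an adjusted p under 0.05 for this comparison, 61 higher and 116 lower. Of the 86 genes here, 72 are in the authors' deposited table, all 72 with the same sign, and 65 under 0.05. In the authors' deposited table Tnmd has a log2 fold change of -3.34 (adjusted p = 1.72e-05), Thbs4 -1.86 (4.42e-05), Plod1 -0.85 (0.00787) and Plac9a 2.69 (9.3e-13). Loxl4 is not under 0.05 there (-1.25, authors' adjusted p = 0.0667). Some list members without a call here are under 0.05 in it. Among them are Col11a1 (0.0359), Fmod (0.0237), Ogn (0.0293), Lox (0.0293) and Wnt16 (0.0156), all lower, and Mmp3 (0.0371), higher. Col1a2 (0.501) and Col3a1 (0.772) are not.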

How the data were processed

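Total RNA of mouse plantaris tendon was sequenced. The submitters' processing notes name FastQC, STAR, DESeq2 and the build mm10, with no versions or settings. The authors deposited 1 table of scaled signal per gene and library: few values are whole numbers, so reads could not be recovered, the depth of each library is unknown and no count test was run. The deposited tables of comparisons hold the authors' log2 fold changes and adjusted p-values, and how these were computed is not given in the sources used here. The p-values printed from them are named as the authors'.

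The deposited signal was divided by a factor per library (median of ratios to the geometric mean gene), and log2(rescaled value + 2) was fitted with limma 3.58.1 in R 4.3.3, with intensity trend and robust variance. All 19 libraries entered 1 fit, with genes at 10 or more in at least 3 libraries, and p-values were adjusted by Benjamini and Hochberg over all genes tested, with a threshold of 0.05. Fold changes on this scale understate changes of low genes. Samples were grouped by the labels. The fit, tested on simulated data of 16383 genes, found 43% of changes of log2 size 1 and 74% of size 2, with 10 false among 127 calls. Each simulated gene varied independently, whereas the real libraries also share variation such as the muscle share. These rates therefore check the code and need not hold for these data.

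Named genes were Scx, the passed genes with a mean of at least 200 and no overlap between genotypes (up to 14 higher and 20 lower, by size), and from each list the members past the threshold or else the most abundant. The members and lists were chosen with earlier results of these data known. Other genes are named as chosen after their values were seen. Alternatives covered scaling, filter, pseudocount, variance model, libraries in the fit, the replicate block, single libraries left out and, chosen after seeing the data, covariates of marker lists and the omission of Scx- replicates 1 and 2. Promoters were read from a RefSeq table of GRCm38.p6 with Python 3.11.15, pandas 2.3.3 and Biopython 1.88. Scx, Cthrc1, Eya2 and Gli1 had no entry.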

Additional observations from a re-analysis of the deposited data

Results flagged for a closer look

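In 7 of 120 groups of 4 libraries, 1 library lay far from the other 3 by a gap test, which chance alone does in about 1 in 20 groups. Scx+ replicate 3 was apart for Plac9a (1379) and Plac9b (1969), on the high side and still below every Scx- library. Scx- replicate 1 was apart for Gli1 (235.9, low), Hdc (423, high) and Ucma (94.23, high, the value that overlaps the Scx+ range). Scx+ replicate 4 was low for Zfp185 (2181), and Scx- replicate 3 was high for Thbs4 (137000).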

How the results depend on the processing

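Against 86 genes past the threshold (18 higher, 68 lower), values as deposited gave 993 (37 higher, 956 lower), sample quality weights 48 (10 and 38), the 8 day 14 libraries alone 9 (3 and 6), the muscle covariate 31 (7 and 24), the muscle and adipocyte covariates 25 (8 and 17) and the omission of Scx- replicates 1 and 2 left 8 (4 and 4). A mean of at least 1 ppm of all signal left 10 higher genes. Single libraries left out gave 22 to 200 in all, 5 to 47 higher and 17 to 153 lower. The cause was not tested, except that the fits of 8 libraries and without replicates rest on fewer samples. With the replicate block, 58 genes passed (13 higher, 45 lower), and for Scx the block gave -9.43 with an exact sign-change p of 0.125, the smallest that 4 pairs allow. Same-numbered libraries did not deviate together (correlations -0.28, 0.18, 0.10 and -0.41), and not every library correlated best with its own number. Whether equal numbers stand for anything shared is not stated in the labels, and these few correlations cannot decide it. Signs turned for genes without a call (Myh1 and Acta1 belong to the list that makes the covariate): with the muscle covariate Myh1 was at -0.34, Acta1 at -0.081 and Fabp4 at -0.036, and with both covariates Myh1 at -0.39, Acta1 at -0.02, Fabp4 at -0.56 and Pecam1 at -0.053. Without Scx- replicates 1 and 2, Col3a1 was at 0.29, Col6a1 at 0.065, Atp5b at -0.057 and Timp2 at 0.095, and Fabp4 ranged from -0.088 to 0.76 with single libraries left out. Depth is unknown, so no counting error can be given for low genes.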
